A study of Mus musculus with 24 samples.

Results

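Axon guidance ligands and receptors were followed in the cerebellum of aged and young mice. The genes were chosen by symbol and covered ephrins and Eph receptors, semaphorins of classes 3 to 7 with plexins and neuropilins, Slits and Robos, netrins with Dcc and Unc5 receptors, and netrin-G genes. Of 71 symbols that met this rule, 70 were found among the 37991 gene identifiers of the count files, and Ntn3 was not analysed here. They comprised 36 ligands and 34 receptors, and 68 of the 70 passed the filter on low counts. The mice were male C57BL/6J, an inbred laboratory strain, aged 79 weeks or 7 weeks, with no genetic change or treatment named, and 2 mRNA sequencing libraries of whole cerebellum were made at each age. The 20 genomic samples among the 24 of the series were not analysed here. Nothing in the labels ties the libraries to different animals. The p-values therefore describe variation among the libraries at hand, part or all of which may be technical.

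Guidance cues steer growing axons and migrating neurons by attraction or repulsion, and many of them are still made in the adult brain, where they act at synapses, glia and vessels. Ephrins are cell surface ligands of the Eph receptor tyrosine kinases. Semaphorins are secreted or membrane-bound and signal through plexins, with neuropilins as coreceptors for most secreted forms. Slits are secreted ligands of Robo receptors, and netrins bind Dcc, often for attraction, and Unc5 receptors, for repulsion. In the mouse cerebellum, the semaphorin and netrin systems are known for guiding the migration of granule cell precursors, and the gene Unc5c is that of a mutant with displaced cerebellar cells.

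Reads assigned to genes numbered 18901921 and 22826993 at 79 weeks, against 16367656 and 21124608 at 7 weeks. Levels are given as CPM, read counts scaled to a common library size with TMM factors. They are not corrected for transcript length, so a level is compared between libraries and not between genes, except in choosing which members to name. A gene with 0 reads could have reached 0.131 to 0.183 CPM, counting error only. Libraries of the same age differed by more than sampling noise, with a mean chi-square per gene of 18.1 at 79 weeks and 6.32 at 7 weeks. Sampling alone would give about 1. A few genes can raise such a mean, so it does not describe a typical gene. The choroid plexus gene Ttr, for 1, had 97720 and 50 reads in the 79-week libraries. Cerebellar identity was checked with granule neuron and Purkinje cell markers. All 12 were detected in each library, with summed granule markers at 4943 to 5152 CPM at 79 weeks and 6244 to 6303 CPM at 7 weeks, and 4 of 6 granule and 3 of 6 Purkinje markers fell. The replicate 1 library of 79 weeks stood apart by its choroid plexus markers, which summed to 5328 CPM there, 37.7 CPM in 79-week replicate 2, and 16.2 and 28.8 CPM at 7 weeks. Microglia markers summed to 118 and 151 CPM at 79 weeks and 69.3 and 79.1 CPM at 7 weeks, with 3 of 6 called higher, and their part in the results was not tested. Among brainstem and midbrain neuron markers, Chat was at 0 in each library, and Tph2 and Dbh stood at 0.691 CPM or less. Th rose, with 22.8 and 36.3 CPM at 79 weeks and 1.68 and 7.91 CPM at 7 weeks. Slc17a6 was not called, with 28 and 33 reads at 79 weeks and 5 and 141 reads at 7 weeks, so that 7-week replicate 2 stood apart for this marker. The part of these cells in the results was not tested.

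Genes were called where edgeR's quasi-likelihood test gave a Benjamini-Hochberg adjusted p under 0.05 over all 15292 genes tested. Of the 68 tested guidance genes, 6 rose, 3 fell and 59 were not called at 79 weeks relative to 7 weeks. The 9 calls were 13.2% of the members, against a background of 8.84% of all genes tested. Split by direction, the background was 4.17% higher and 4.68% lower. The genes that rose were the plexin genes Plxnd1, Plxna3 and Plxnc1, the semaphorin genes Sema6c and Sema3f, and the netrin receptor gene Unc5a. The genes that fell were the plexin gene Plxna1, the semaphorin gene Sema6a and the Eph receptor gene Epha6. In this bulk tissue, fewer cells of a type and less RNA per cell cannot be told apart. The median log2 fold change was -0.02 over the members and 0.01 over all tested genes. Ligands had a median of 0.00 with 2 of 34 higher and 1 lower, and receptors had a median of -0.06 with 4 of 34 higher and 2 lower.

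**Figure D1:**
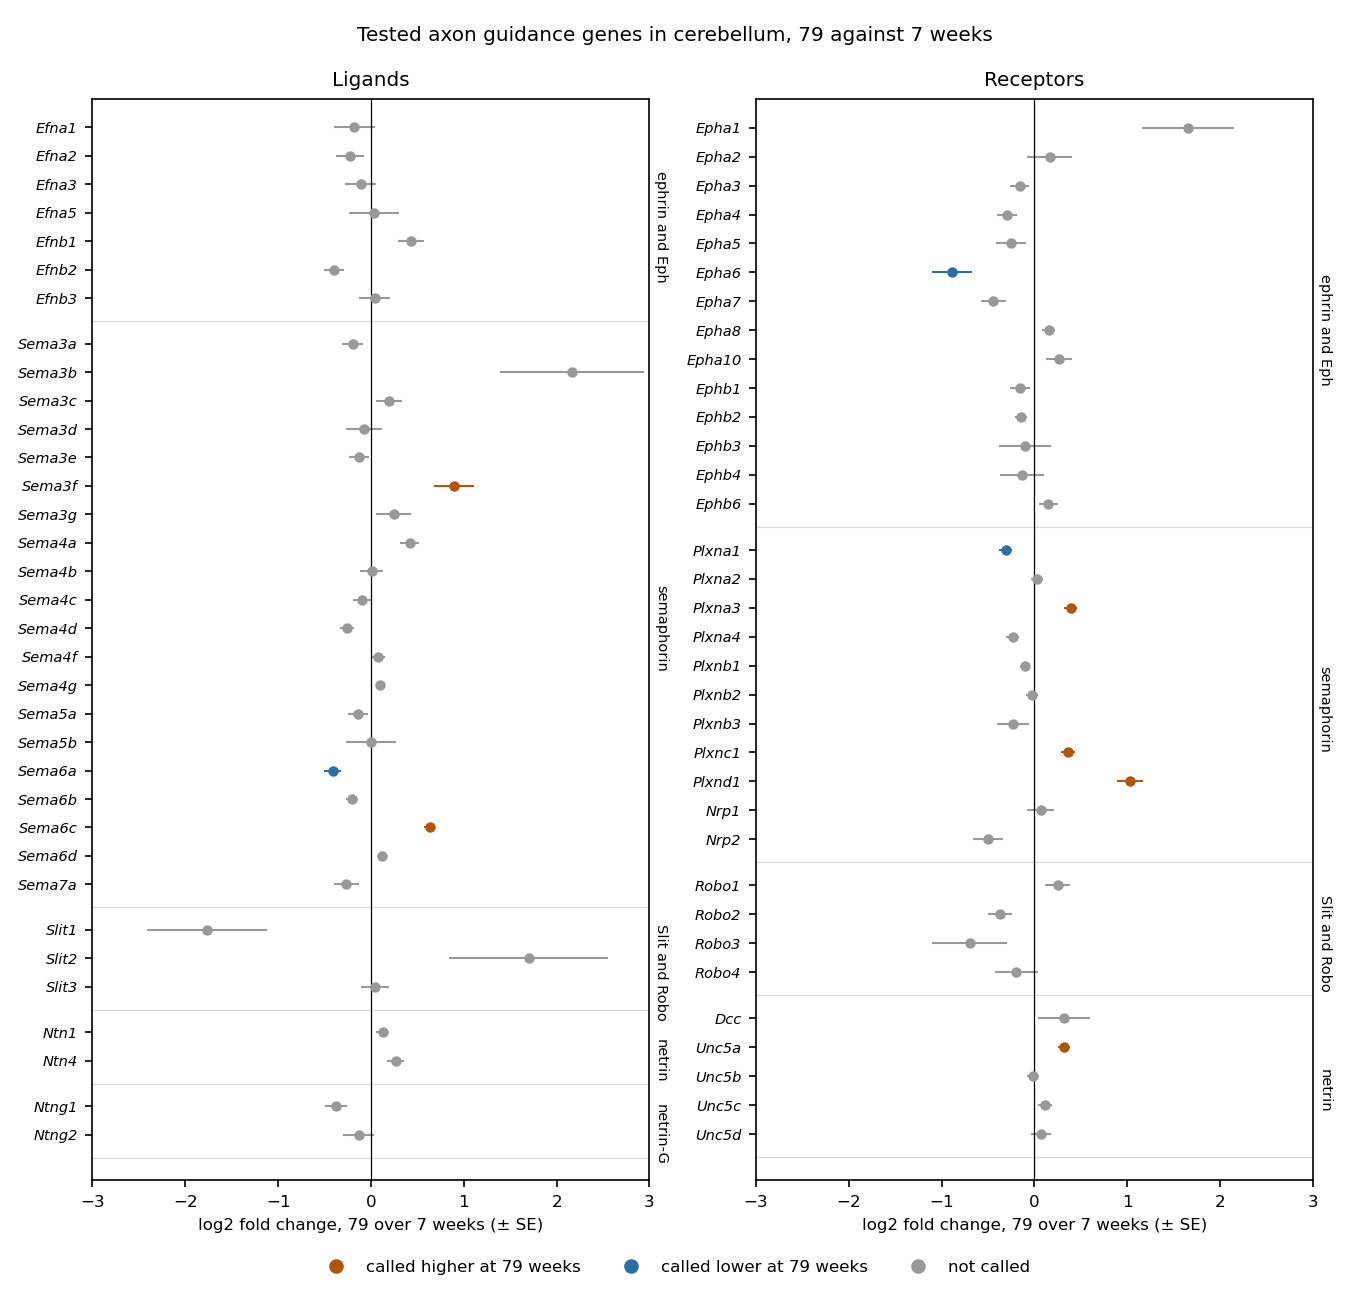
The log2 fold change of each of the 68 tested guidance genes, 79 over 7 weeks, is plotted on the x axis with its standard error, for ligands on the left and receptors on the right, by family. Most points lie near 0, the 9 called genes are coloured, and the ligands with the widest error bars are Sema3b, Slit1 and Slit2.

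Libraries of the same age lay close together for most members. The 79-week libraries were within 1.5-fold of each other for 59 of the 68 tested genes, and the 7-week libraries for 63. The ages did not overlap for 38 members, or 55.9%, near the background of 57.7%. Both aged libraries lay above both young ones for 20 members and below them for 18, and the background of these patterns was 29.0% and 28.8%. An unadjusted p under 0.05 was reached by 24 members, or 35.3%, against 26.7% of all genes tested. The number of calls depended on which libraries were used. Without 7-week replicate 1, edgeR called 0 of all genes tested and 0 members, although 2610 genes and 19 members had an unadjusted p under 0.05. DESeq2, another count test, then called 243 genes and 2 members, Sema6c and Plxnd1. Without 7-week replicate 2, edgeR called 1 member, Sema6c, and 1.11% of all genes. Without 79-week replicate 1 it called 9 members higher and 9 lower, and 9.96% of all genes. With 79-week replicate 2 left out it called 8 higher and 7 lower, and 15.4% of all genes. All 9 called genes kept their direction under each of the 18 alternative settings tried. Their ages did not overlap and each setting drew on the same libraries, so a change of direction could hardly arise. The kept direction is therefore no separate evidence. Scaling by library size alone called none of the 3 falls (edgeR adjusted p = 0.0554 for Plxna1, 0.0528 for Sema6a and 0.0545 for Epha6).

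**Figure D2:**
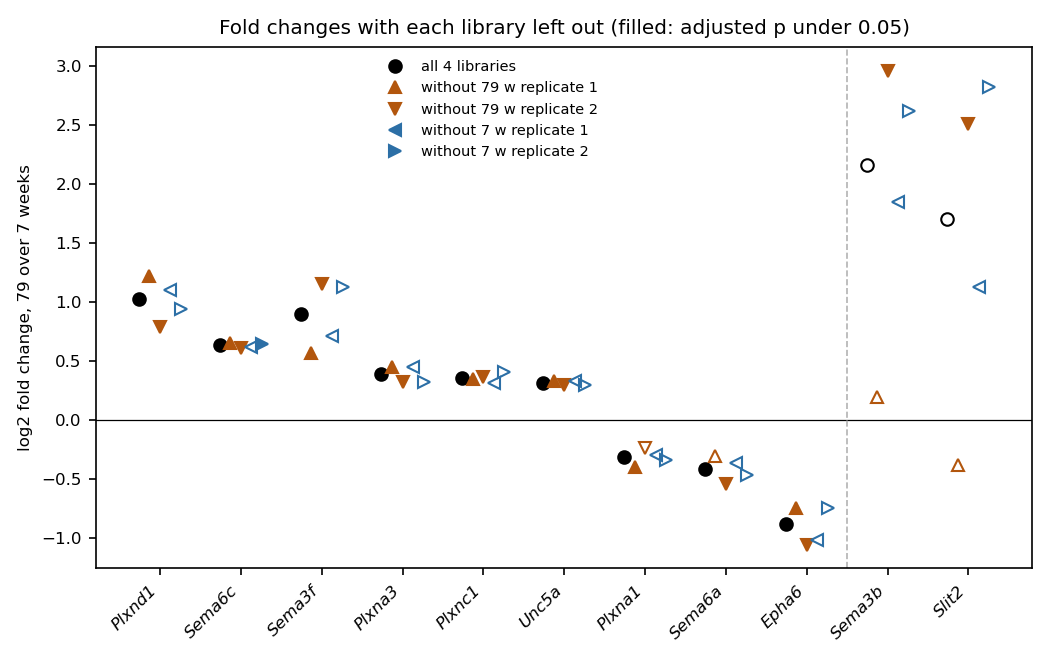
The log2 fold change of the 9 called guidance genes, and of Sema3b and Slit2 to the right of the dashed line, is shown with all libraries and with each library left out. Filled symbols mark an adjusted p under 0.05. The 9 called genes, whose ages do not overlap, keep their sign in each fit, which could hardly be otherwise. Slit2, whose ages overlap, goes from 1.70 with all libraries to -0.38 without 79-week replicate 1.

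Plexins, the receptors of semaphorins, held 4 of the 9 calls. Of 9 plexin genes 3 rose, 1 fell and 5 were not called, where 4.17% of all tested genes were called higher and 4.68% lower. Plxnd1 (ENSMUSG00000030123), the plexin that binds the secreted ligand Sema3e and is known from vessels and synapses, had 68.3 and 92.0 CPM at 79 weeks and 41.7 and 37.3 CPM at 7 weeks. Both 79-week libraries lay above both 7-week libraries, and replicate 2 was the higher of the aged pair. The rise was 2.04-fold (log2 fold change 1.03, SE 0.14, edgeR adjusted p = 0.00919). Plxnd1 was called under 16 of 18 alternatives, with adjusted p from 4.29e-34 to 0.119, and the calls lost were those of edgeR without either 7-week library. Markers of endothelial cells and pericytes, where Plxnd1 is also made, summed to 179 and 200.2 CPM at 79 weeks and 168 and 183 CPM at 7 weeks. Of these 6 markers 0 were called by edgeR and 1 had an unadjusted p under 0.05, and their part in the rise was not tested.

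Plxna3 (ENSMUSG00000031398), a plexin A that takes part in responses to Sema3f together with neuropilin 2, had 88.5 and 96.7 CPM at 79 weeks and 73.8 and 67.8 CPM at 7 weeks. It rose 1.31-fold (log2 fold change 0.39, SE 0.07, edgeR adjusted p = 0.0216). Plxnc1 (ENSMUSG00000074785), a receptor of Sema7a, had 45.9 and 45.2 CPM in the aged libraries and 34.3 and 36.6 CPM in the young ones. Its rise was 1.28-fold (log2 fold change 0.36, SE 0.08, edgeR adjusted p = 0.0322), and DESeq2 with all libraries did not call it. Plxna1 (ENSMUSG00000030084), which pairs with neuropilin 1 for Sema3a and also binds class 6 semaphorins, moved the other way. It had 137 and 122 CPM at 79 weeks against 163 and 158 CPM at 7 weeks, and fell by 0.31 on the log2 scale (SE 0.07, edgeR adjusted p = 0.0308). The 3 plexins that rose and Plxna1 each had ages that did not overlap. Of the 18 alternatives, 12 kept the call of Plxna3, 11 that of Plxnc1 and 11 that of Plxna1, with adjusted p reaching 0.48, 0.91 and 0.433. Without 79-week replicate 2, Plxna1 was not called (edgeR adjusted p = 0.0559).

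The plexins not called included the other plexin A genes, Plxna2 and Plxna4, receptors of Sema6a in the mouse brain. Plxna2 had 96.0 and 105.9 CPM at 79 weeks and 100.2 and 98.1 CPM at 7 weeks, so the ages overlapped. Plxna4 had 95.2 and 104.9 CPM in aged and 112 and 123 CPM in young libraries, and its log2 fold change of -0.23 (SE 0.07) missed the threshold (edgeR adjusted p = 0.0829). Plexin B genes, among them the Sema4d receptor gene Plxnb1, had log2 fold changes of -0.10 for Plxnb1, -0.02 for Plxnb2 and -0.23 for Plxnb3. The value of Plxnb3 was 0.03 without 79-week replicate 1, and -0.57 and called lower without 79-week replicate 2. Plxna4 was called lower with the replicate block and with no low-count filter, and its log2 fold change was -0.31 without 79-week replicate 2. Plxnb2 stood at 259 and 227 CPM at 79 weeks and 246 and 249 CPM at 7 weeks. The neuropilin genes were not called in the edgeR fit described above either. Nrp1 had 10.4 and 9.37 CPM at 79 weeks and 9.46 and 9.40 CPM at 7 weeks. Nrp2 had 14.8 and 10.7 CPM in aged and 16.9 and 19.1 CPM in young libraries, with a log2 fold change of -0.50 (SE 0.16, edgeR adjusted p = 0.101). It was called lower with the crossed block and with no low-count filter, and its log2 fold change was -0.75 without 79-week replicate 1. The crossed block pairs each 79-week library with the 7-week library of the other replicate number, a pairing that the labels do not name.

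**Figure D3:**
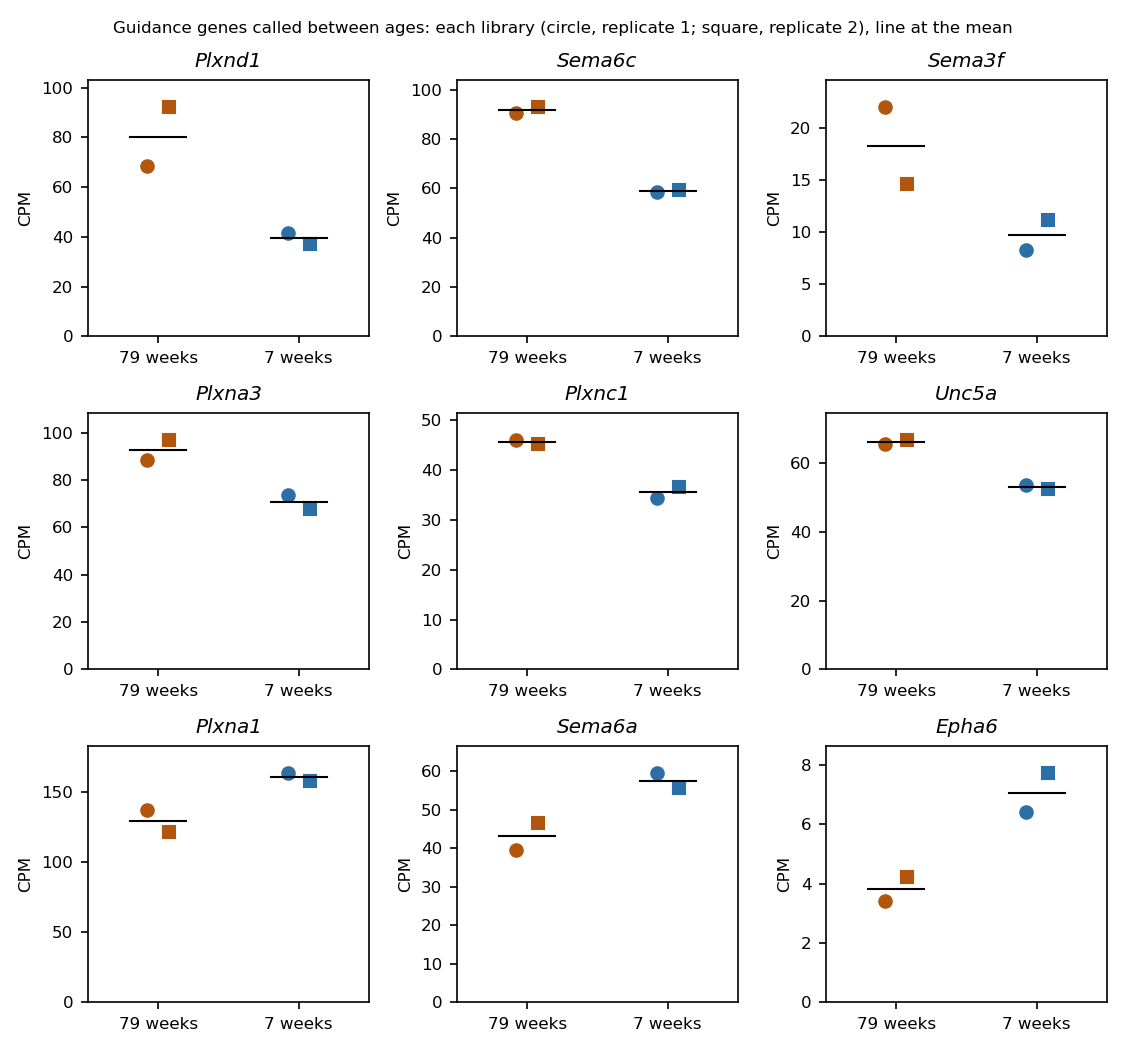
Levels in CPM (y axis, from 0) of the 9 called guidance genes in each library, at 79 weeks on the left and 7 weeks on the right of each panel. Circles are replicate 1, squares replicate 2 and the line is the mean of the 2 libraries. The ages do not overlap in any of the 9 panels, and the aged libraries of Plxnd1, at 68.3 and 92.0 CPM, and Sema3f, at 22.0 and 14.6 CPM, lie far apart.

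Class 6 semaphorins, membrane-spanning ligands of plexin A receptors, were split. Sema6c (ENSMUSG00000038777) had 90.5 and 92.8 CPM at 79 weeks and 58.7 and 59.6 CPM at 7 weeks, with the libraries of each age almost level. Its 1.55-fold rise (log2 fold change 0.63, SE 0.06, edgeR adjusted p = 0.00343) had the smallest p among the members. It was called under 17 of 18 alternatives (adjusted p from 2.39e-15 to 0.0893), the exception being edgeR without 7-week replicate 1. Sema6a (ENSMUSG00000019647), which acts through Plxna2 in granule cell migration in mice, had 39.6 and 46.5 CPM at 79 weeks and 59.4 and 55.5 CPM at 7 weeks. It fell by 0.41 on the log2 scale (SE 0.09, edgeR adjusted p = 0.0388), and the call was lost under 7 of 18 alternatives (adjusted p up to 0.686), among them leaving out 79-week replicate 1. The remaining members of the class were not called in the edgeR fit described above. Sema6d had 227 and 244 CPM in aged and 218 and 217 CPM in young libraries. Sema6b had 72.7 and 77.4 CPM in aged and 89.5 and 83.4 CPM in young libraries, and was called lower with no low-count filter. None of the 4 class 6 genes had overlapping ages, beside 57.7% of all genes that did not overlap, and Sema6c and Sema6d lay above while Sema6a and Sema6b lay below their 7-week levels.

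Class 3 semaphorins are secreted. Of 7 genes 1 rose, 0 fell and 6 were not called by edgeR, beside 8.84% of all genes called. An unadjusted p under 0.05 was reached by 2, Sema3f and Sema3b, beside 26.7% of all genes. Sema3f (ENSMUSG00000034684), a repellent that binds neuropilin 2, had 22.0 and 14.6 CPM at 79 weeks and 8.34 and 11.1 CPM at 7 weeks, a 1.86-fold rise (log2 fold change 0.90, SE 0.22, edgeR adjusted p = 0.0477). The ages did not overlap, and 79-week replicate 1, where choroid plexus markers were high, was the higher of the aged pair. Without that library the log2 fold change was 0.57 and without 79-week replicate 2 it was 1.16. Sema3f was called under 11 of 18 alternatives (adjusted p from 4.67e-08 to 0.668), and neither limma-voom nor robust dispersion estimates called it.

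Sema3b, another secreted class 3 gene, had 22.3 and 3.24 CPM at 79 weeks and 2.06 and 3.52 CPM at 7 weeks. Only 79-week replicate 1 was high among the 4 libraries, with 432 reads, and 79-week replicate 2 lay between the young libraries. The log2 fold change of 2.16 (SE 0.78) was the largest among the tested members and was not called (edgeR adjusted p = 0.126). Leaving out 79-week replicate 1 brought it to 0.20. With 79-week replicate 2 left out instead, it was 2.96 and called. Over the alternatives its adjusted p ranged from 7.39e-20 to 1. Slit2 had the same outline, and was singled out after its values were seen. It had 14.997 and 1.99 CPM at 79 weeks and 1.18 and 3.86 CPM at 7 weeks (log2 fold change 1.70, SE 0.86, edgeR adjusted p = 0.252), and without 79-week replicate 1 its log2 fold change was -0.38, while without 79-week replicate 2 it was 2.51 and called. In that library the choroid plexus gene Ttr had 5054 CPM, against 2.16 CPM in 79-week replicate 2. All 8 choroid plexus markers were highest there, and Folr1 was at 0 in both 7-week libraries. Fibroblast and meninges markers summed to 327 and 141 CPM at 79 weeks and 155 and 173 CPM at 7 weeks. Of the sum in 79-week replicate 1, 228 CPM came from Igf2. Dcn, Lum and Slc6a13 were also highest in that library, at 30.8, 5.38 and 14.7 CPM, while Col1a1 and Col1a2 were lower there than in both 7-week libraries. The part of these cells in the values of Sema3b, Slit2 and Sema3f was not tested.

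**Figure D4:**
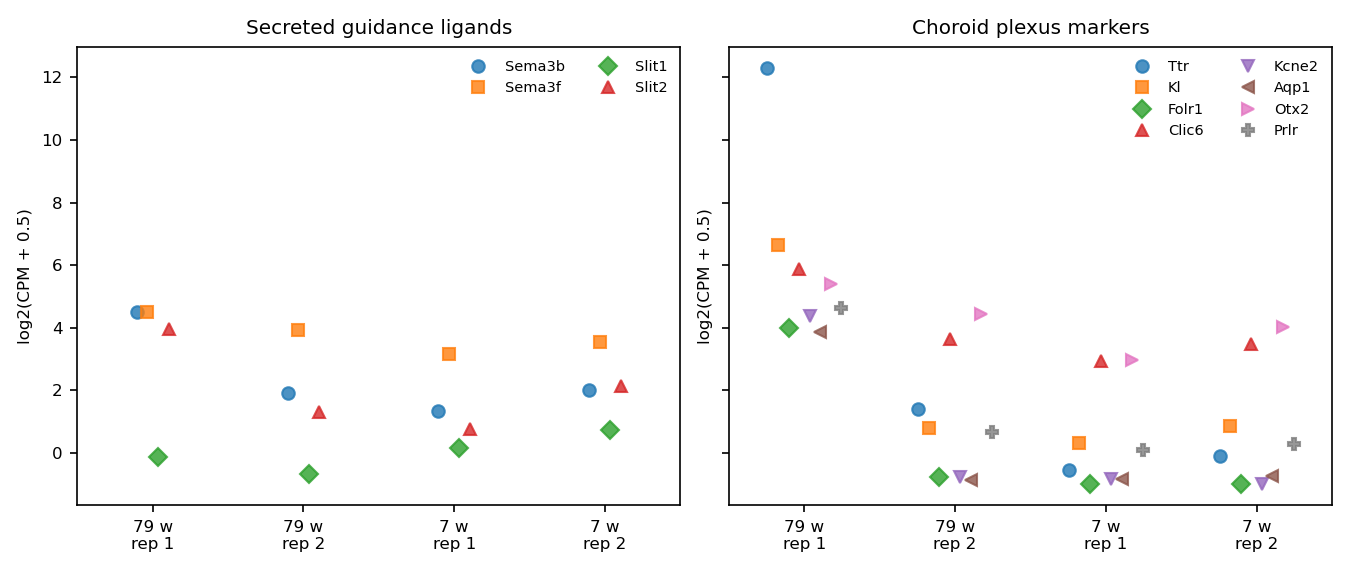
Levels as log2(CPM + 0.5) in each of the 4 libraries for the secreted ligand genes Sema3b, Sema3f, Slit1 and Slit2 (left) and for the 8 choroid plexus markers (right). Sema3b at 22.3 CPM and Slit2 at 14.997 CPM are high in 79-week replicate 1, where Ttr reaches 5054 CPM.

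The other class 3 genes were not called, with log2 fold changes from -0.19 for Sema3a to 0.24 for Sema3g. Sema3a, a repellent known for its place in perineuronal nets, had 23.4 and 25.5 CPM at 79 weeks and 30.7 and 25.4 CPM at 7 weeks, so the aged libraries overlapped the young. Sema3c was at 11.2 and 11.4 CPM in aged and 10.7 and 9.11 CPM in young libraries. Sema3d had a log2 fold change of -0.07.

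Class 4, 5 and 7 semaphorins are held at the membrane, class 7 by a lipid anchor. None of their 9 genes passed the threshold in the edgeR fit described above or in DESeq2 with all libraries. These fits called 8.84% and 5.45% of all genes. Other settings with all libraries called some of them. Sema4a was called higher with library size scaling, the 1 CPM filter, robust dispersion estimates, the replicate block, the crossed block and no low-count filter. Sema4d was called lower with robust dispersion estimates, the crossed block and no low-count filter, and Sema7a with the crossed block and no low-count filter. Sema4a and Sema4d, 2 of the 9, had an unadjusted p under 0.05 in edgeR, beside 26.7% of all genes. Sema4a, chosen after its values were seen, came closest. It had 21.7 and 24.4 CPM at 79 weeks and 16.4 and 18.1 CPM at 7 weeks (log2 fold change 0.42, SE 0.11, edgeR adjusted p = 0.0538). Sema4d, a ligand of Plxnb1 that oligodendrocytes make, had 68.4 and 75.8 CPM in aged and 90.2 and 82.8 CPM in young libraries (log2 fold change -0.26, edgeR adjusted p = 0.075). Myelinating oligodendrocyte markers were lower in the same direction, with 3 of 6 called and sums of 3408 and 4829 CPM at 79 weeks and 5687 and 5323 CPM at 7 weeks, and their part in the Sema4d values was not tested. Sema4g had 174 and 179 CPM in aged and 168 and 163 CPM in young libraries, a log2 fold change of 0.10. Sema4b, Sema4c and Sema4f had log2 fold changes of 0.01, -0.09 and 0.08. Sema5a had 49.9 and 56.5 CPM at 79 weeks and 64.2 and 53.4 CPM at 7 weeks, and Sema5b had a log2 fold change of -0.0039. Sema7a had 171 and 226 CPM in aged and 262 and 216 CPM in young libraries (log2 fold change -0.27, SE 0.13, edgeR adjusted p = 0.25). Its log2 fold change was -0.08 when 79-week replicate 1 was left out, and -0.49 and called when 79-week replicate 2 was. Sema4a was called without 79-week replicate 1 (0.50) and Sema4d without 79-week replicate 2 (-0.34).

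Over the whole semaphorin system, 5 of 31 genes rose, 2 fell and 24 were not called, so that 22.6% were called beside the 8.84% of all genes. The summed level of the 20 ligand genes was 1168 and 1258 CPM at 79 weeks and 1259 and 1172 CPM at 7 weeks. That of the 11 plexin and neuropilin genes was 973 and 996 CPM at 79 weeks and 990 and 979.9 CPM at 7 weeks. The sums overlapped between ages, while single genes within them rose and fell.

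The stretch before the start of transcription is shown for Plxnd1, Sema6c and Plxna3, the 3 members with the smallest adjusted p, because all 3 rose. Each is the 250 bases before the start listed by RefSeq on build GRCm38.p6, 5′ to 3′ on the strand of the gene, with each CG dinucleotide, the site of most cytosine methylation, in capitals. The counts were made by the authors on mm9, so these positions belong to the RefSeq table only.
Plxnd1, chr6:115995006-115995255, minus strand: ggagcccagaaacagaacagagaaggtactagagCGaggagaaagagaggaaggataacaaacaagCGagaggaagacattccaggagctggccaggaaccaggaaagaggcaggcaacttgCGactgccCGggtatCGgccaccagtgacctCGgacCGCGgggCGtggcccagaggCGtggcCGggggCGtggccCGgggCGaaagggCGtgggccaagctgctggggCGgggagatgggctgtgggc
Sema6c, chr3:95160170-95160419, plus strand: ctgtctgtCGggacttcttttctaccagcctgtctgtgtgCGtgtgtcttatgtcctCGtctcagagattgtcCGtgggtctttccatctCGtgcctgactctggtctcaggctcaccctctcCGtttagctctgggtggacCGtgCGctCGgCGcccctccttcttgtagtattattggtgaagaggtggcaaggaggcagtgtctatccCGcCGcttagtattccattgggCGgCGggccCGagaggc
Plxna3, chrX:74328816-74329065, plus strand: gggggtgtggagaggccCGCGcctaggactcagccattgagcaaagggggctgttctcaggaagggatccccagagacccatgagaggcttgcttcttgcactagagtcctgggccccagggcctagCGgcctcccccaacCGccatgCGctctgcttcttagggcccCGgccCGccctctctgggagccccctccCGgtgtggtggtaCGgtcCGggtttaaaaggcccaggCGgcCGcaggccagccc

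These windows held 16 CG for Plxnd1, 15 for Sema6c and 12 for Plxna3, and each held GGGCGG, the core of a GC box, on either strand. RefSeq listed windows for 60 of the 70 members, 76 windows in all, since a gene can have several starts. Their median was 15.5 CG, against 6 CG over 32851 windows of the same length from all genes, whether or not they were tested here. Windows of the tested genes alone were not compared, so these contrasts may not be particular to guidance genes. GGGCGG was present in 69.7% of the member windows and in 32.7% of all windows. TATAAA, searched on both strands, was present in 2.63% of member windows and 12.4% of all windows. Among called members with a window, the count ranged from 0 at a start of Sema6c not shown to 25 CG for Unc5a. Windows of receptors and ligands had medians of 16 and 15 CG. Methylation of these windows was not analysed here.

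Eph receptors and ephrins gave 1 call among 21 tested genes, or 4.76%, beside 8.84% of all genes. Epha6 (ENSMUSG00000055540), an Eph receptor tyrosine kinase of class A, had 3.41 and 4.23 CPM at 79 weeks and 6.41 and 7.71 CPM at 7 weeks. The ages did not overlap, on 66 and 98 reads at 79 weeks and 103 and 160 reads at 7 weeks. Epha6 fell by 0.88 on the log2 scale (SE 0.22, edgeR adjusted p = 0.0473) and was called under 9 of 18 alternatives (adjusted p from 0.00414 to 0.916). DESeq2 with all libraries did not call it.

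Ages did not overlap for 8 of the 9 EphA genes, 4 above and 4 below, where 57.7% of all tested genes did not overlap, 29.0% above and 28.8% below. Epha7, chosen after its values were seen, had 33.6 and 25.3 CPM at 79 weeks and 38.8 and 41.0 CPM at 7 weeks (log2 fold change -0.44, SE 0.13, edgeR adjusted p = 0.0802). Without 79-week replicate 1 its log2 fold change was -0.66 and called lower by edgeR and by DESeq2, and without 79-week replicate 2 it was -0.25. It was also called lower with the crossed block and with no low-count filter. Epha4, which binds ephrins of both classes, had 32.9 and 27.0 CPM in aged and 35.7 and 37.7 CPM in young libraries (log2 fold change -0.30, edgeR adjusted p = 0.132). It was called lower with no low-count filter, and its log2 fold change was -0.44 without 79-week replicate 1. Epha8 had 117 and 115 CPM at 79 weeks and 97.3 and 111 CPM at 7 weeks (log2 fold change 0.15, edgeR adjusted p = 0.218). Epha1 rested on few reads, with 26 in each aged library and 9 and 5 in the young ones. Its log2 fold change of 1.65 (SE 0.50) was not called (edgeR adjusted p = 0.081), but it was called higher with no low-count filter. Epha2, Epha3, Epha5 and Epha10 had log2 fold changes between -0.25 and 0.27.

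None of the 5 EphB genes was called with all libraries, where the edgeR fit described above called 8.84% of all genes. An unadjusted p under 0.05 was reached by 0 of the 5, beside 26.7% of all genes. Ephb2, a receptor of B ephrins at excitatory synapses, had 83.4 and 85.7 CPM at 79 weeks and 89.8 and 96.9 CPM at 7 weeks (log2 fold change -0.14, SE 0.06, edgeR adjusted p = 0.191). The EphB genes had log2 fold changes from -0.15 to 0.15. Ephb1 had 48.5 and 61.7 CPM in aged and 60.9 and 62.0 CPM in young libraries, and 79-week replicate 1 was the low one. Its log2 fold change was 0.007 without that library, and -0.35 and called lower without 79-week replicate 2. The log2 fold change of Ephb3 was -0.47 and 0.20 in these fits, and that of Ephb4 was -0.46 and 0.14. Ephb3 and Ephb4 stood under 10 CPM in each library, and Ephb6, whose kinase domain is inactive, had 18.2 and 17.2 CPM at 79 weeks and 15.8 and 16.2 CPM at 7 weeks.

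Class B ephrins span the membrane and can signal in reverse into their own cell. Efnb1 and Efnb2, both chosen after their values were seen, differed in direction. Efnb2 had 29.3 and 24.2 CPM at 79 weeks and 35.5 and 35.1 CPM at 7 weeks (log2 fold change -0.40, SE 0.11, edgeR adjusted p = 0.0593). Efnb1 had 11.998 and 12.5 CPM in aged and 9.78 and 8.44 CPM in young libraries (log2 fold change 0.43, SE 0.14, edgeR adjusted p = 0.1). Neither passed the threshold in the edgeR fit described above. Other settings with all libraries called Efnb2 lower: robust dispersion estimates, the replicate block, the crossed block and no low-count filter. The log2 fold change of Efnb2 was -0.54 without 79-week replicate 1. The ages did not overlap for either gene. Efnb3 had 45.6 and 68.5 CPM at 79 weeks and 54.1 and 57.0 CPM at 7 weeks, so the young libraries lay between the aged ones, and without 79-week replicate 1 it was called higher (log2 fold change 0.30). Class A ephrins, held by a lipid anchor, were not called, with log2 fold changes from -0.22 for Efna2 to 0.04 for Efna5. Efna3 had 9.10 and 11.958 CPM in aged and 10.8 and 11.959 CPM in young libraries, and Efna1 had a log2 fold change of -0.18. Over all Eph receptor genes the summed level was 403 and 392 CPM at 79 weeks and 406 and 439 CPM at 7 weeks.

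Among Slits and Robos 0 of 7 genes passed the threshold with TMM scaling and the low-count filter in edgeR, beside 8.84% of all genes. DESeq2 with all libraries called 0 of them, beside 5.45% of all genes. An unadjusted p under 0.05 was reached in edgeR by 2 of the 7, or 28.6%, near the 26.7% of all genes. Without the low-count filter edgeR called Slit2 higher and Slit1 and Robo2 lower, and with the crossed block it called Slit2 and Robo2. Apart from Slit2, given with Sema3b, Slit3 had 14.9 and 20.3 CPM at 79 weeks and 16.9 and 17.4 CPM at 7 weeks. Slit1 was close to the limit of detection, with 8 and 3 reads in aged and 10 and 24 reads in young libraries, and its log2 fold change of -1.77 (SE 0.64) was not called (edgeR adjusted p = 0.129). Robo2, a main Slit receptor of neurons, had 37.3 and 33.1 CPM at 79 weeks and 39.7 and 50.9 CPM at 7 weeks (log2 fold change -0.37, SE 0.13, edgeR adjusted p = 0.112). The ages did not overlap, by a narrow gap between 37.3 and 39.7 CPM. Robo1 had 25.2 and 31.8 CPM in aged and 22.3 and 25.8 CPM in young libraries (log2 fold change 0.25, edgeR adjusted p = 0.275). With 79-week replicate 1 left out, edgeR called Robo1 higher (log2 fold change 0.40), Robo2 lower (-0.46) and Slit1 lower (-2.75). With 79-week replicate 2 left out Robo1 was at 0.06, and with 7-week replicate 2 left out Robo2 was at -0.18. Robo3, known from midline crossing in the embryo, had 12 and 16 reads in aged and 20 and 19 reads in young libraries. Robo4, a receptor of blood vessels, had 4.29 and 6.43 CPM at 79 weeks and 6.16 and 6.17 CPM at 7 weeks.

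Netrin receptors gave 1 call among 5 tested genes, beside 8.84% of all genes called. Unc5a (ENSMUSG00000025876), a repulsive netrin receptor, had 65.5 and 66.5 CPM at 79 weeks and 53.6 and 52.5 CPM at 7 weeks. The libraries of each age were almost level, and Unc5a rose 1.25-fold (log2 fold change 0.32, SE 0.07, edgeR adjusted p = 0.0287). It was called under 11 of 18 alternatives (adjusted p from 0.00131 to 0.712), and DESeq2 with all libraries did not call it. Its span overlaps that of Hk3 in RefSeq, and the strand setting of the counting is not given, so reads of such genes could not be told apart where they overlap. The spans of Plxna1, Plxna3 and Epha6 also overlap predicted or uncharacterised genes, and those of Plxnd1, Plxnc1, Sema3f, Sema6a and Sema6c overlap no listed gene.

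The other Unc5 genes were not called. Unc5b had 145 and 148 CPM at 79 weeks and 156 and 141 CPM at 7 weeks. Unc5c had 128 and 127 CPM in aged and 107.9 and 127 CPM in young libraries. In both genes the ages overlapped. Unc5d had 16.1 and 17.4 CPM in aged and 15.6 and 16.3 CPM in young libraries. Dcc, the netrin receptor of attraction, was present at 2.48 and 2.50 CPM at 79 weeks and 2.24 and 1.78 CPM at 7 weeks (log2 fold change 0.32, SE 0.28, edgeR adjusted p = 0.517). Unc5a and Dcc thus had log2 fold changes of like size, but the standard error of Dcc was several times larger. Of the ligands, Ntn1 had 123 and 131 CPM in aged and 109.7 and 122 CPM in young libraries (log2 fold change 0.13, edgeR adjusted p = 0.277). Ntn4, a netrin of basement membranes, had 52.4 and 49.9 CPM in aged and 39.8 and 45.2 CPM in young libraries (log2 fold change 0.26, SE 0.09, edgeR adjusted p = 0.0999). It was called higher with no low-count filter. The summed level of the 8 netrin and netrin receptor genes was 533 and 542 CPM at 79 weeks and 485 and 506 CPM at 7 weeks, without overlap. Of the 7 tested, 6 had a positive log2 fold change and 1 was called. Among all 15292 tested genes, 7907 were positive and 8.84% were called. Gene by gene, the ages did not overlap for 57.1% of the tested netrin system, near the 57.7% of all genes.

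Netrin-G genes encode lipid-anchored proteins that bind the synaptic adhesion proteins Lrrc4c and Lrrc4 rather than Dcc. Ntng1 had 17.1 and 14.6 CPM at 79 weeks and 19.3 and 21.8 CPM at 7 weeks (log2 fold change -0.38, SE 0.12, edgeR adjusted p = 0.0918). Ntng2 had 9.21 and 10.9 CPM in aged and 12.3 and 9.79 CPM in young libraries. Neither was called in the edgeR fit described above. Ntng1 was called lower with the crossed block and with no low-count filter, and its log2 fold change was -0.49 without 79-week replicate 1. Only Ntng1 had ages that did not overlap. The members that did not pass the filter were Efna4, with 2 to 9 reads a library, and Ntn5, with 3 to 4 reads.

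Known ligand and receptor partners were set side by side. Unless another setting is named, calls here are those of the edgeR fit with TMM scaling and the low-count filter. Plxnd1 rose 2.04-fold while its ligand gene Sema3e had 17.3 and 20.1 CPM at 79 weeks and 19.99 and 21.0 CPM at 7 weeks (log2 fold change -0.13, edgeR adjusted p = 0.484). Sema3f and Plxna3 both rose, with Nrp2, the coreceptor of Sema3f, at a log2 fold change of -0.50 that was not called. Plxnc1 rose 1.28-fold while its ligand gene Sema7a had a log2 fold change of -0.27 that was not called. Sema7a was called lower with the crossed block and with no low-count filter, and its log2 fold change was -0.49 without 79-week replicate 2. Sema6a fell, and its receptor genes Plxna2 and Plxna4 had log2 fold changes of 0.03 and -0.23 that were not called. Sema4d and Plxnb1 had log2 fold changes of -0.26 and -0.10, Ntn1 and Unc5a 0.13 and 0.32, and Efnb2 and Ephb4 -0.40 and -0.14. Differences between partners were not tested.

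Other genes of the pathway were followed in 2 lists. Of 37 tested genes for further guidance cues, receptors and axonal adhesion proteins 0 rose, 4 fell and 33 were not called. The genes that fell were Chl1, Nell1, Nrcam and Lrrc4b. Chl1, an adhesion protein of the L1 family that takes part in semaphorin responses, had 247 and 230.3 CPM at 79 weeks and 339 and 333 CPM at 7 weeks, and fell by 0.49 on the log2 scale (edgeR adjusted p = 0.0052). Nrcam, of the same family, had 275 and 266 CPM in aged and 329 and 317 CPM in young libraries. Nell1, whose family includes a Robo3 ligand, had 39.0 and 38.8 CPM in aged and 50.9 and 53.5 CPM in young libraries. The median log2 fold change over this list was -0.17 against 0.01 over all genes, and 30 of its 37 genes were negative, beside 7384 of all 15292. The 4 calls, all falls, were 10.8% of the list, beside 4.68% of all genes called lower and 8.84% called in either direction. Both aged libraries lay below both young ones for 22 of the 37 genes and above them for 2, beside 28.8% and 29.0% of all genes. An unadjusted p under 0.05 was reached in edgeR by 40.5% of the list, beside 26.7% of all genes. Its members include Rtn4, Rgma, Neo1, Cntn2 and Ptprs, none of which was called by edgeR.

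Of 57 genes for signalling inside the cell downstream of guidance receptors 3 rose, 9 fell and 45 were not called, or 21.1% called beside 8.84% of all genes, with a median log2 fold change of -0.09. Rock2, a kinase downstream of RhoA, had 198 and 204 CPM at 79 weeks and 309 and 295 CPM at 7 weeks, and fell by 0.59 on the log2 scale (edgeR adjusted p = 0.00318). Pak1, a kinase downstream of Rac1 and Cdc42, had 417 and 416 CPM in aged and 577 and 551 CPM in young libraries (edgeR adjusted p = 0.00903). Dpysl4, of the collapsin response mediator family that relays semaphorin signals, had 164 and 146 CPM at 79 weeks and 243 and 205 CPM at 7 weeks. Ngef, which encodes the Eph receptor exchange factor ephexin, had 5.33 and 4.32 CPM in aged and 9.90 and 9.64 CPM in young libraries, and fell by 1.02 on the log2 scale (SE 0.18, edgeR adjusted p = 0.0187). The other genes that fell were Dpysl3, Fyn, Srgap1, Gsk3b and Cdc42, and those that rose were Ablim3, Rnd1, which binds plexins, and Sh3bp1. Granule neuron markers were lower at 79 weeks in 6 of 6 genes, with 4 called and 0 at 0 CPM, and Purkinje markers in 5 of 6. The part of these cells in the falls was not tested.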

How the data were processed

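Per the labels, RNA came from Trizol extraction and went into the Universal Plus mRNA-Seq kit. What the authors deposited are unnormalised counts of reads for each Ensembl gene. Per the submitters' processing notes, reads were trimmed with cutadapt, aligned with STAR to mm9 and counted with HTSeq. The sources used here give no versions, annotation release or strand setting.

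The HTSeq summary lines were taken off before totals were computed. They hold reads outside genes, 18.7% to 20.4% of each library, and reads aligned more than once, 8.02% to 8.25%. Symbols came from a table of Ensembl identifiers. Members and gene lists were chosen with earlier results of these data known. Analyses ran in R 4.3.3 with edgeR 4.0.16. Genes were kept by filterByExpr (minimum count 10, minimum total 15), scaled by TMM (factors 0.9812 to 1.023) and compared by the quasi-likelihood F test as 79 minus 7 weeks without covariates, with Benjamini-Hochberg adjustment over all 15292 genes. Standard errors were derived from the F statistic and are approximate. CPM are TMM-scaled, and log2 levels use a pseudocount of 0.5 CPM. The fits were tested on simulated data.

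Members named were those called, the 1 of each subclass with the highest mean CPM, and the largest difference in each direction among those not called at 1 CPM or more. As CPM are not corrected for length, the highest CPM need not mark the most abundant transcript. The values of the remaining members are also given, and those named as chosen after their values were seen fall outside this rule. Slit1, Epha1, Epha4, Ephb1, Ntn4, Sema3e, Sema4d, Plxna2, Plxna4 and Robo1 were likewise chosen after their values were seen. Further genes were up to 4 called of each list. Alternatives were RLE, library size and upper-quartile scaling, DESeq2 1.42.0, robust dispersion, limma-voom (limma 3.58.1), a replicate block, dropping the low-count filter or asking for 1 CPM in 2 libraries, and each library left out in edgeR and in DESeq2. In the fits without a library, 1 age has a single library, taken to vary as the pair at the other age does. A crossed block was added after the data were seen.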

Additional observations from a re-analysis of the deposited data

How the results depend on the processing

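The 9 called guidance genes kept their direction under all 18 alternatives, which could hardly be otherwise for genes whose ages did not overlap. The counts of calls did not hold. With all libraries, 1352 genes were called, 637 higher and 715 lower, or 47.1% higher. Library size scaling gave 901 higher and 484 lower, or 65.1% higher, and among guidance genes 7 higher and 0 lower. Without the low-count filter 3051 genes were called, with 11 guidance genes higher and 14 lower. Robust dispersion estimates gave 5 guidance genes lower. Leaving out each library in edgeR gave 0 to 2425 genes called, 0 to 9 guidance genes higher and 0 to 9 lower. In DESeq2 it gave 382 genes when the 79-week replicate 1 library was dropped (2 guidance genes higher, 2 lower) and 656 for 79-week replicate 2 (4 higher, 2 lower). Dropping 7-week replicate 1 gave 243 and dropping 7-week replicate 2 gave 430, each with 2 guidance genes higher and 0 lower. The cause was not tested.

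Both ages have replicates 1 and 2, but the labels name no shared animal or batch, so the libraries share only a number. With the replicate block 1396 genes were called, with 7 guidance genes higher and 5 lower, and it ended none of the 9 calls. Deviations of libraries with the same number correlated at -0.106 over genes, and the crossed block called 2014 genes, with 9 guidance genes higher and 10 lower.

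Of the genes named by the rule that were not called, 5 changed sign, with all libraries at -0.11 (Efna3) to 0.04 (Efnb3 and Slit3). With library size scaling the log2 fold change was 0.03 for Plxnb2 and 0.039 for Unc5b. Leaving out each library in edgeR, it ranged from -0.332 to 0.067 for Efna3, from -0.291 to 0.302 for Efnb3, from -0.122 to 0.063 for Plxnb2, from -0.203 to 0.24 for Slit3 and from -0.092 to 0.057 for Unc5b. In DESeq2 the changed signs were 0.051 for Unc5b and -0.008 for Efnb3 without 7-week replicate 1, 0.062 for Efna3 without 79-week replicate 1, and -0.297 for Efnb3, 0.056 for Plxnb2 and -0.209 for Slit3 without 79-week replicate 2. Members named outside the rule or not singled out changed sign too, among them Slit2 at -0.384 without 79-week replicate 1. The cause was not tested. Genes with few reads, such as Slit1 and Robo3, are limited by depth.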
